A study of Mus musculus with 6 samples.

Results

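The 40 genes described here encode enzymes and regulators of glycolysis and glycogen metabolism. They were chosen by name, and every H3K27ac peak that the deposited peak tables annotate to one of them as the nearest gene was kept. In all, 15642 genes were named in either table. H3K27ac, the acetylation of a lysine in the tail of histone H3 that marks active promoters and enhancers, was measured by ChIP-seq in whole quadriceps, a mixed and mostly fast-glycolytic thigh muscle. All mice were wild type and of the C57BL/6 strain as labelled, C57BL/6J males in the methods (the input libraries are labelled C57BL/7 for control and C57BL/8 for detrained mice). Control mice were sedentary. Detrained mice had run voluntarily on wheels for 4 weeks from 8 weeks of age and were then rested for 72 h before the muscle was taken. Each group had 2 H3K27ac libraries, each from the quadriceps of 1 mouse, and 1 input library. The H3K27ac libraries held 20805019 to 22400894 tags (aligned, unduplicated reads), the control input 10812470 and the detrained input 21298438. The control libraries are called C2 and C3 and the detrained libraries Ex1 and Ex2, as the tables name them.

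Glycolysis splits glucose into pyruvate and yields ATP without oxygen, and it carries the work of fast muscle fibres during short, intense contraction. Muscle also stores glucose as glycogen: glycogenin starts the chain, glycogen synthase lengthens it, the branching enzyme branches it, and glycogen phosphorylase, switched on by phosphorylase kinase, releases it again when the muscle contracts. Several of these enzymes exist as a muscle form and as forms typical of other tissues, each from its own gene.

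The promoters of 3 pairs of forms are shown, since within each pair the genes do the same task and their promoters differ in the number of CpG dinucleotides. The pairs were chosen after their letters were seen, and not all pairs differ in this way: Phka1 and Phka2 both have CpG-rich promoters. Each sequence is the 250 bases before the RefSeq start site on the gene's own strand (GRCm38.p6, the build of the mm10 coordinates in the tables). Capitals mark E-boxes, GC boxes, CCAAT boxes and MEF2 motifs on either strand. The E-box is the core CANNTG, bound by MyoD-type factors and many others. The GC box is the run GGGCGG, bound by Sp-type factors.
Pygm: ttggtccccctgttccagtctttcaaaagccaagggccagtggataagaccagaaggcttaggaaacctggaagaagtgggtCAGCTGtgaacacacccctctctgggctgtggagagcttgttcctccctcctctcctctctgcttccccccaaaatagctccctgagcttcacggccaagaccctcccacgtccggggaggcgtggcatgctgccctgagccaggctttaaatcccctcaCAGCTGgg
Pygb: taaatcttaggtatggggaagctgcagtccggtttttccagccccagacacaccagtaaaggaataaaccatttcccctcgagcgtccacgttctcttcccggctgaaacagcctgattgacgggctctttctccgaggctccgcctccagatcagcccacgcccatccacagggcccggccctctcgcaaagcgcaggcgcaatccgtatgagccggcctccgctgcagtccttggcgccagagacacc
Pgam2: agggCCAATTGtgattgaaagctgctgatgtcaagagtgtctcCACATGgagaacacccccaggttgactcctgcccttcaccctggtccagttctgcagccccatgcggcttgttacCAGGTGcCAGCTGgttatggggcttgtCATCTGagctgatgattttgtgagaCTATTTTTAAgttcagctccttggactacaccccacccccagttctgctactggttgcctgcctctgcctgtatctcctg
Pgam1: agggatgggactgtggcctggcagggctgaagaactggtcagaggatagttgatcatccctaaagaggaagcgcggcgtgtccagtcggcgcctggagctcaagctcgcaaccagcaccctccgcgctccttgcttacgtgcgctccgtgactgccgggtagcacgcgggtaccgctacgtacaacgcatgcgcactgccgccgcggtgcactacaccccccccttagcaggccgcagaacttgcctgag
Phkg1: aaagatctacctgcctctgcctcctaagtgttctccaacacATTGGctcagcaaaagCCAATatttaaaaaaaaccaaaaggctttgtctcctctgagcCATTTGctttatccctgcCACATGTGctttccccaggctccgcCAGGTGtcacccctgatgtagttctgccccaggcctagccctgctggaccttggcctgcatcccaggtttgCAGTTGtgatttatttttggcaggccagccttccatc
Phkg2: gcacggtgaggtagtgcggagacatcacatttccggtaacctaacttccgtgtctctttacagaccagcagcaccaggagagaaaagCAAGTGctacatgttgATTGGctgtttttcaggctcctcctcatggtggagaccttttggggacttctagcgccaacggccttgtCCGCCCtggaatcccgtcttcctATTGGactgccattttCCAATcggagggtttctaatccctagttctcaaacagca
Pygm (muscle glycogen phosphorylase, chr19:6384158-6384407, plus strand) held 2 E-boxes and 4 CpG dinucleotides in these 250 bases, while Pygb (the brain form, chr2:150786546-150786795, plus strand) held no E-box and 17 CpGs. Pgam2 (muscle phosphoglycerate mutase, chr11:5803797-5804046, minus strand) held 5 E-boxes, a MEF2 motif and 1 CpG, against 0 E-boxes and 22 CpGs in Pgam1 (chr19:41911621-41911870, plus strand). Phkg1 (the muscle catalytic subunit of phosphorylase kinase, chr5:129879089-129879338, minus strand) held 5 E-boxes and 1 CpG. Phkg2 (the liver and testis subunit, chr7:127573098-127573347, plus strand) held 1 E-box, 1 GC box and 9 CpGs.

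Control mice had 123 listed peaks at 38 of the 40 genes, out of 46988 peaks in all, and detrained mice had 104 at 38 genes, out of 40721. Peak intervals came from the pooled libraries of each group and were kept where both libraries together passed the authors' test against input, so each group has a single list and no list per library. Of the 40 genes, 37 were listed in both tables. Aldoc, the brain form of aldolase, had no peak in either. Eno2, the neuronal enolase, had only a detrained peak of 889 bp with 15.5 pooled tags per 10000000 (normalized tags). Ppp1r3d, a glycogen-targeting subunit of protein phosphatase 1, had only a control peak of 1428 bp with 61.5 pooled tags. Annotation to the nearest gene does not show which gene a region acts on, and 8 control and 8 detrained peaks of these genes lay inside another gene, the phosphoglucomutase pair described next not counted. The tables' Pgm2 (chromosome 4) and Pgm1 (chromosome 5), both phosphoglucomutases, carry each other's current RefSeq symbols, and the tables' names are kept here.

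Peaks of these genes were long. Their median length was 2137 bp in control mice (1568 bp over all peaks) and 3408 bp in detrained mice (1798 bp over all peaks). Among peaks that cover the annotated start site, the median was 5632 bp (all genes 2127 bp) and 5412 bp (all genes 2119 bp). Of 37 such control peaks, 9 reached 10 kb (24.3%, against 3.56% of start-site peaks of all genes), and of 36 in detrained mice 6 did (16.7%, against 3.32%). The longest control peaks, taking the longest of each gene, lay at Eno3 (muscle enolase, 20152 bp), Pgm2 (17811 bp), Pfkfb3 (17562 bp, in an intron), Pfkm (muscle phosphofructokinase, 17414 bp), Pygm (14999 bp), Gys1 (muscle glycogen synthase, 14652 bp), Ugp2 (14419 bp, at -56150 bp from its start site), Pkm (pyruvate kinase, 14130 bp) and Aldoa (muscle aldolase, 13890 bp). Of the 123 control peaks, 37 covered a start site (30.1%, against 22.9% of all peaks) and 66 lay within 10 kb of one. By the authors' annotation of the peak centre, 67 were intronic (54.5%, against 50.8%), 39 intergenic (31.7%, against 30.7%) and 7 in promoters (5.69%, against 11.2%), though long intronic and intergenic peaks can span the start. A distance of 50 kb or more was seen at 18 (14.6%, against 24.1% of all peaks). Length and signal are not separate measures here, since a peak called as 1 long interval in a table can be listed as several in the other.

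Isoform genes of the same enzyme were compared inside each library, where the separate normalization of the tables does not enter. In each pair the muscle form had the longer main peak, which is the peak covering the start site where there is one. In control mice it was 8.83 times as long for Pfkm over Pfkl, 10.1 times for Pygm over Pygb, 13.2 times for Pygm over Pygl, 7.81 times for Phka1 over Phka2, 7.79 times for Phkg1 over Phkg2, 3.36 times for Pgam2 over Pgam1 and 1.99 times for Eno3 over Eno1. In detrained mice the same ratios were 10.3, 5.89, 8.79, 5.94, 7.04, 2.63 and 2.27. The Eno3 main peak also covers the start site of a neighbouring gene, Pfn1, in both groups. The families were picked with these results known, so the counts are a description and no test was made.

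**Figure D1:**
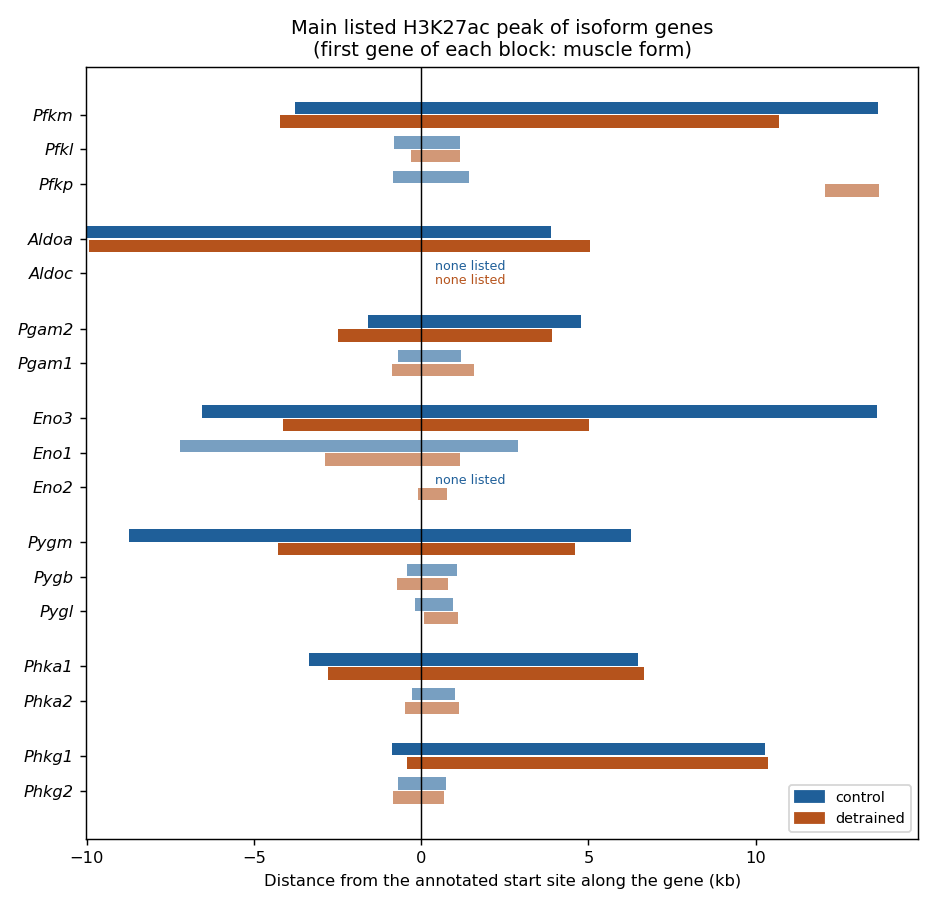
Extent of the main listed H3K27ac peak of isoform genes in control (blue) and detrained (orange) mice, as distance in kb from the annotated start site along the gene; dark bars are muscle forms and light bars other forms. Muscle forms span 6378 bp (Pgam2) to 20152 bp (Eno3) in control mice, other forms 1138 bp (Pygl) to 10110 bp (Eno1), and Aldoc has no bar.

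Density, the number of tags per kb of peak per 10000000 tags, gave a narrower contrast than length. For phosphofructokinase, the committed step of glycolysis, the Pfkm start-site peak had densities of 82.5 (C2), 121 (C3), 116 (Ex1) and 114 (Ex2). Pfkl, the liver form, had 47.1, 53.7, 59.4 and 63.4. Pfkp, the platelet form, had 25.4, 29.3, 23.5 and 27.1 in the densest region shared by the tables, 12238 bp into the gene. Its start-site peak (2259 bp, densities 33.8 in C2 and 25.9 in C3) was listed in control mice alone. Pfkm was above Pfkl by 0.81 to 1.18 log2 units within the 4 libraries. It was above Pfkp by 1.29 to 2.30 log2 units, with the start-site peak of Pfkp taken in control and the intronic one in detrained libraries.

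Glycogen phosphorylase showed the same order. Pygm, the form that breaks down glycogen in contracting muscle, had densities of 70.5, 90.0, 88.3 and 89.8 in C2, C3, Ex1 and Ex2. Pygb had 30.8, 24.2, 27.4 and 30.3, and Pygl, the liver form, 38.1, 27.7, 34.2 and 27.5. Pygm lay 1.2 to 1.89 log2 units above Pygb and 0.89 to 1.71 above Pygl, with no overlap of any library.

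Phosphorylase kinase and phosphoglycerate mutase gave a mixed picture. Phkg1 was denser than Phkg2 in every library (70.4, 93.5, 71.9 and 70.2 against 44.9, 42.5, 48.3 and 43.8). The regulatory subunits Phka1 (muscle) and Phka2 (liver) overlapped, at 46.2, 65.0, 59.2 and 57.9 against 64.0, 63.6, 62.2 and 49.7. Pgam2 and Pgam1 overlapped as well, at 74.0, 92.1, 77.6 and 73.2 against 82.1, 82.4, 73.1 and 66.2. For Phka the difference ran from -0.47 to 0.22 log2 units over the libraries and for Pgam from -0.15 to 0.16, so neither pair differed in density beyond the spread, although the muscle form had the longer peak and, in tags per peak, exceeded the other form by 2.50 to 3.0 and 1.48 to 1.91 log2 units.

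Among the enolases, Eno3 had 79.0 (C2), 95.4 (C3), 129.8 (Ex1) and 120.3 (Ex2) in its main peak, and Eno1, the ubiquitous form, 71.8, 83.4, 101 and 96.1. Eno3 was higher by 0.14 to 0.36 log2 units within each library. The Eno3 main peak also covered the start sites of Pfn1 and Spag7 in control mice and of Pfn1 in detrained mice. That of Eno1 covered no other start site. The length, density and tags of the Eno3 peak are thus not those of Eno3 alone. Both genes had a far longer peak in control mice, so these densities are not compared between the groups. Eno1 has a near-identical copy in the mouse genome and only uniquely aligned reads were kept, so its level may be understated. Over the 8 pairs of forms with a peak in all libraries, the muscle form was denser in all 4 libraries in 6 pairs and had more tags per peak in all 4 in 8 pairs.

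The promoter windows of all members (250 bases before to 50 after the start) were read from RefSeq for 38 of the 40 genes, and 33 start exactly at the tables' start site. Aldoc has no peak and hence no start site in the tables, and Ppp1r3b was not matched, so neither enters the medians and counts over these windows. The windows of the 7 muscle forms held a median of 3 CpGs, those of the 9 other forms 21, those of all 38 members 18 and those of all 32851 RefSeq windows 7. Muscle forms ranged from 0 CpGs (Aldoa) to 25, with Phka1 as the single CpG-rich one. All 7 muscle forms held an E-box against 3 of 9 other forms, and 1 of 7 held a GC box (Phka1) against 7 of 9.

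**Figure D2:**
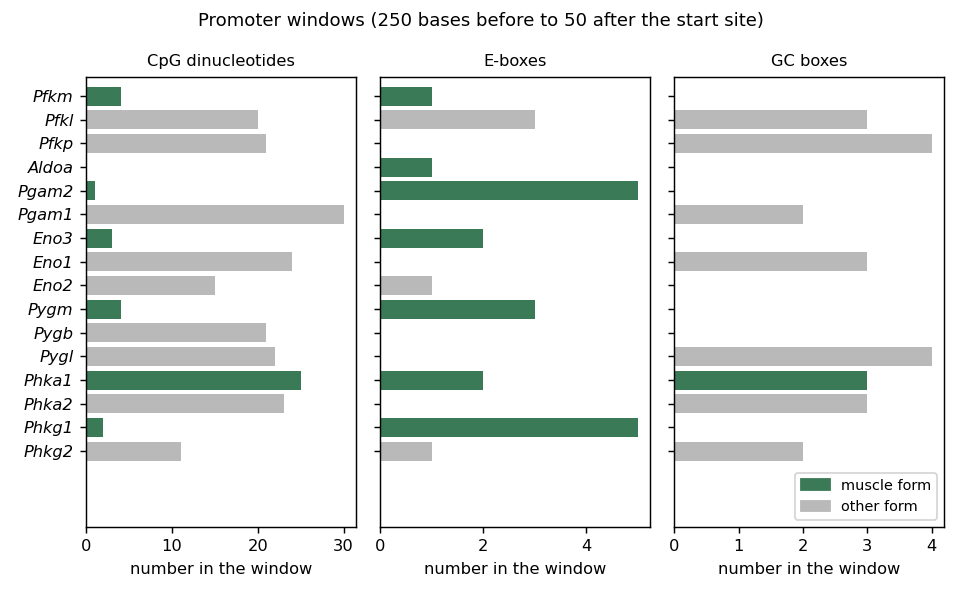
Number of CpG dinucleotides, E-boxes (CANNTG) and GC boxes (GGGCGG) in the promoter window of each isoform gene, with muscle forms in green and other forms in grey; an absent bar is 0. Muscle forms other than Phka1 hold 0 to 4 CpGs and no GC box, and the 9 other forms shown hold 11 to 30 CpGs; Aldoc, which has no start site in the tables, is not drawn.

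Over all members, E-boxes were as frequent as in other windows (28 of 38, 73.7%, against 72.3%). GC boxes were held by 24 windows (63.2%, against 35.7%), and the core of the hypoxia-inducible factor motif, ACGTG, by 16 (42.1%, against 19.6%), including Hk1, Gapdh, Pgk1, Pgam1, Pfkfb3 and Pygm. This core can overlap an E-box, as in CACGTG. Of the other motifs searched on both strands, CCAAT boxes (39.5%, against 37.4%), TATAAA (10.5%, against 13.6%), the CRE core TGACG (28.9%, against 20.8%), the AP-1 motif TGANTCA (2.63%, against 7.81%) and the MEF3 core TCAGGTT (2.63%, against 4.07%) were at shares near or below those of all windows apart from the CRE core. MEF2 motifs were found in 3 windows, those of Pgam2, Pfkfb1 and Ppp1r3a (7.89%, against 3.19%). The GC box, the ACGTG core and the CRE core each hold a CpG. Member windows had a median of 18 CpGs against 7 over all windows, and the shares were not matched for CpG number. The part of CpG number in these shares was not tested. With alternative RefSeq starts included, 11 of 12 muscle windows held an E-box and 3 a GC box, against 5 and 9 of 13 windows of other forms. The 2 RefSeq starts of Aldoc had 3 and 8 CpGs, below the 11 to 30 of the other forms. The 3 Aldoa starts ranged from 0 to 24 CpGs, so the low CpG number belongs to the start that the tables use. These are matches of letters in a window, with no measure of binding.

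To compare the groups, a control and a detrained peak were paired where each covered at least 50% of the other one-to-one and both were annotated to the same gene. This left 82 shared peaks at 34 of the 40 genes, out of 26432 shared peaks of all genes, and 31 of the 82 cover the start site. The lead peak of a gene is its densest shared peak over the start site, or its densest shared peak elsewhere. The tables were normalized separately and with 2 libraries per group an exact two-sided permutation test cannot go below 0.333, so values are given without a test. Values per library rest on the pooled tags of a peak and on shrunken log values, which draws libraries of a group together. In bulk tissue, fewer cells of a type and less signal per cell cannot be told apart.

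By the mean over the 4 libraries, the densest lead peak lay at Epm2a, which encodes laforin, a glycogen phosphatase. Its density was 142 and 158 in control libraries and 126 and 122 in detrained libraries, over a short peak of 1696 bp in control mice. The groups did not overlap, at a log2 ratio (detrained over control) of -0.28. Among lead peaks it was first in control mice only, since in detrained mice Ugp2 had a mean of 124.6 against 123.95 at Epm2a. Genes without a shared peak do not enter this order, among them Eno3, whose detrained main peak had 129.8 and 120.3.

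The next 6 genes could not be ordered, since neighbours among them differed by 0.00 to 0.08 log2 units while libraries of a group differed with SDs of 0.12 to 0.28. They were Gbe1, the glycogen branching enzyme (120.2, 142, 102 and 104 in C2, C3, Ex1 and Ex2), Aldoa (109.9, 137, 116 and 103) and Tpi1, triose phosphate isomerase (100.3, 117, 123 and 116). Ugp2, which makes the UDP-glucose that glycogen synthase uses, had 97.2, 110.2, 131 and 118. Pfkm (82.5, 121, 116 and 114) and Gapdh (96.9, 121, 107 and 97.7) completed the group. Per kb, Gbe1 was lower and Ugp2 higher in both detrained libraries, and in the other 4 genes the groups overlapped. Per peak the Gbe1 libraries overlapped as well (391 and 461 against 398 and 409 tags, log2 ratio -0.07).

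Next came Phkb, the scaffold subunit of phosphorylase kinase, at 83.6, 117, 91.9 and 79.97, and its gap of 0.19 log2 units to Gapdh was smaller than its own SD between libraries of a group (0.26). Pfkfb3, which makes the activator of phosphofructokinase, had 90.8, 113, 82.8 and 81.9, with both detrained libraries below both control libraries. Gyg, glycogenin, had 74.2, 88.7, 107 and 85.1 and overlapped between the groups. The remaining 24 lead peaks had mean densities from 84.2 (Pygm) down to 24.4 (Eno1), and 7 of the 34 lay below the median density of all shared peaks. The Eno1 value comes from a weak peak at -9677 bp from the start site, because its promoter peaks of 10110 and 4033 bp did not pair.

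**Figure D3:**
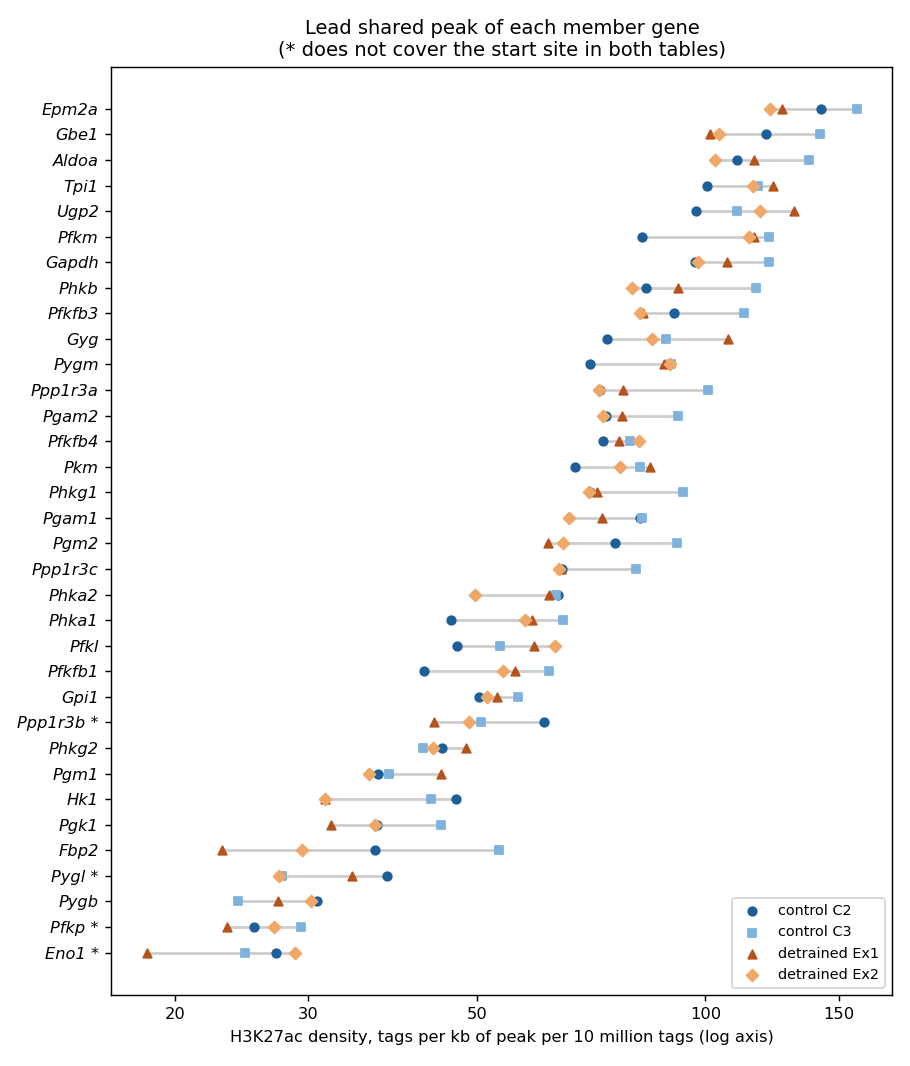
H3K27ac density of the lead shared peak of each of 34 genes, as tags per kb per 10000000 tags on a log axis, with a point per library. Epm2a is the densest at a mean of 136 over the 4 libraries (Ugp2 is level with it in detrained mice), Eno1 the lowest at 24.4, and the control library C3 is often the highest point.

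Per kb, the 82 shared peaks were lower in detrained than in control mice more often than higher. The median log2 ratio was -0.137 (-0.026 over all 26432 shared peaks), and 54 of 82 ratios were below 0 (65.9%, against 54.0% of all). At 32 peaks each detrained library was below each control library (39.0%, against a background of 27.2% of all shared peaks), at 5 the reverse held (6.10%, against 21.3%), and the groups overlapped at 45. Scaled to the tags in listed peaks, the split of 5 higher and 32 lower became 18 and 22, which is 21.95% and 26.8% of the members against 27.8% and 22.03% of all shared peaks. With the median of all shared peaks set to 0 it became 10 and 22 (12.2% and 26.8%, against 24.3% and 24.1% of all). Counted per peak instead of per kb, 14 were higher and 23 lower (17.1% and 28.05%, against 24.7% and 28.8% of all). The share of lower members was thus closer to that of all peaks on these 2 scales and at the level of all peaks without peak length. Peaks over the start site had a median of -0.131 and the other 51 peaks a median of -0.143.

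A single library carried much of this. C3 was above C2 at 69 of the 82 peaks (84.1%, against 61.3% of all shared peaks), by a median of 0.258 log2 units (0.067 over all), whereas Ex2 and Ex1 differed by a median of 0.010. Without C3 the median ratio was -0.004 and without C2 it was -0.218. The counts of higher and lower peaks without C3 were 31 and 35 (37.8% and 42.7%, against 38.7% and 36.9% of all shared peaks), near the background. Without C2 they were 8 and 58 (9.76% and 70.7%, against 30.5% and 45.5%), without Ex1 12 and 40 (14.6% and 48.8%, against 28.8% and 43.4%) and without Ex2 14 and 40 (17.1% and 48.8%, against 37.2% and 35.9%). The 10 genes taken to mark muscle fibres had summed signals of 7947 (C2) and 10048 (C3) normalized tags in control and 9817 (Ex1) and 9396 (Ex2) in detrained libraries, with peaks at 9 of the 10 in each table and none at Tnnt3. Peaks labelled Myh4 numbered 3 in control and 1 in detrained mice, with 75.1 and 83.5 against 814 and 788 tags. The paper describes H3K27ac enrichment at Myh4 in untrained quadriceps, and a nearest-gene label can move between the tables. Whether the label moved here was not tested, so the step is not read as a change at Myh4. Without these peaks the sums were 7871 and 9965 against 9003 and 8608. Markers of other cells were present, and the summed signal of 4 cell types was higher in both detrained libraries, though not at every gene: fibroblasts (4 of 4 genes with a peak, 2420 and 2355 against 2927 and 2921), immune cells (3 of 5 genes in control and 4 of 5 in detrained mice, 168 and 133 against 293 and 239), satellite cells (3 of 3 genes, 348 and 377 against 499 and 512) and smooth muscle (3 of 3 genes, 252 and 257 against 297 and 289). Of the smooth muscle genes, only Myh11 was higher in both detrained libraries (99.3 and 103 against 157 and 157), Acta2 was lower (132 and 142 against 125 and 113) and Cnn1 overlapped, as did Dcn, Csf1r and Myf5 in the other lists. All these sums cover listed peaks only, so they depend on which peaks were called in each group. The immune gene Ptprc had no control peak and 2 detrained peaks (64.1 and 43.6 tags). Endothelial genes (5 of 5, 2226 and 2615 against 2899 and 2290) overlapped. Of the liver genes Alb and Serpina1a had no peak while Apoa1 (359 and 375 pooled tags in control and detrained mice) and Cyp7a1 (114 and 114) had some, and of the fat cell genes Adipoq and Plin1 had none while Fabp4 did (474 and 518). The part of any of these in the ratios of the members was not tested.

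Per kb, 5 shared peaks were at least 1.5-fold lower with no overlap of the libraries (6.10%, against 2.06% of all shared peaks), and none was 1.5-fold higher (1.10% of all). Without C2, 8 peaks were at least 1.5-fold lower (4.08% of all shared peaks were). Without C3 (2.21% of all), 3 were lower (Ppp1r3a, Pfkfb3 and Phkg1) and 2 higher (both at Ppp1r3c), while the Fbp2 and Phka1 peaks no longer reached 1.5-fold. The largest difference was at Ppp1r3a, whose product anchors protein phosphatase 1 to glycogen in skeletal muscle. It lay in an intergenic peak at chr6:14606914-14610363, 146636 bp from the start site on the downstream side. Densities were 44.2 (C2) and 58.3 (C3) in control mice and 27.3 (Ex1) and 30.7 (Ex2) in detrained mice, 1.75-fold lower. The peak was similar in length in both tables (3449 and 3646 bp), and tags per peak fell too, from 153 and 201 to 99.6 and 112 normalized tags. The log2 ratio was -0.61 without C3 and -1.01 without C2.

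An intronic peak of Pfkfb3 at -7876 bp from the start site it is annotated to (chr2:11508757-11511175) had densities of 29.3 and 31.2 in control and 17.1 and 21.5 in detrained libraries, 1.57-fold lower. Its tags per peak were 70.9 and 75.4 against 27.9 and 34.9, so it was lower on either scale. The detrained peak was also shorter (1625 bp against 2418 bp).

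The other 3 peaks were lower per kb but not 1.5-fold lower per peak, the detrained peak being longer. At the start site of Fbp2, the muscle fructose bisphosphatase that works against phosphofructokinase (chr13:62856726-62859610), densities were 36.7 and 53.5 in control and 23.1 and 29.4 in detrained libraries, 1.70-fold lower. The tags per peak of 106 and 154 against 104 and 133 overlapped, over lengths of 2884 and 4516 bp. The longer detrained peak (119 pooled tags) spans a further control peak of Fbp2, and both control peaks together held 164.5 pooled tags. In an intron of Phkg1 (chr5:129864276-129867026, 13437 bp into the gene) the densities were 38.1 and 39.4 against 22.1 and 25.5, and the tags per peak 105 and 108 against 94.2 and 108. In an intron of Phka1 (chrX:102622732-102624411, 20675 bp into the gene) they were 24.6 and 31.0 against 17.6 and 16.8, with 41.3 and 52.1 against 43.1 and 41.2 tags per peak.

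The Fbp2 promoter is shown because it lies under the start-site peak with the lowest ratio among lead peaks. Its 250 bases (chr13:62858401-62858650, minus strand, GRCm38.p6, from RefSeq) held 3 E-boxes in capitals, the last of which is the palindrome CACGTG that also holds the ACGTG core, and the single AP-1 motif found among the members.
Fbp2: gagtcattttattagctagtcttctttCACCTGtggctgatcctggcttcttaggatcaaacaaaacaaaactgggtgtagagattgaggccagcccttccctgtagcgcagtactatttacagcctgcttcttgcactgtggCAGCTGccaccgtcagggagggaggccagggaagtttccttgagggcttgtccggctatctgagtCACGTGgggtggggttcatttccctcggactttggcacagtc

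Higher signal in both detrained libraries was seen at 5 peaks. The largest ratio lay at -13010 bp from the start of Ppp1r3c, another glycogen-targeting subunit (33.1 and 39.0 in control, 49.5 and 56.0 in detrained libraries, log2 ratio 0.55). A distal peak at -157890 bp from Ppp1r3b, the liver-type subunit, had 30.4 and 25.9 against 35.4 and 39.4 (0.41). The start sites of Pfkl (47.1 and 53.7 against 59.4 and 63.4, 0.29) and Ugp2 (97.2 and 110.2 against 131 and 118, 0.27) and a Gbe1 intron (29.7 and 34.5 against 36.5 and 39.9, 0.25) made up the rest. Per peak these ratios were 0.09, -0.19, -0.16, 0.02 and 0.09, so the higher density went with a shorter detrained peak in all 5.

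**Figure D4:**
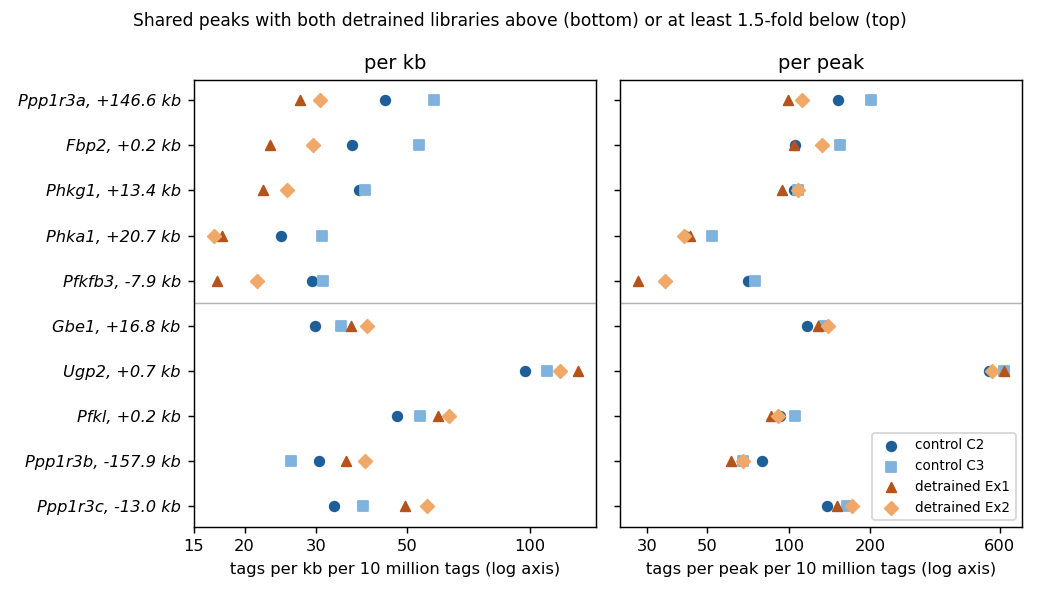
H3K27ac signal in each library at the 5 shared peaks at least 1.5-fold lower (top) and the 5 peaks higher (bottom) in both detrained libraries, per kb of peak (left) and per peak (right), in tags per 10000000 on log axes. Ppp1r3a and Pfkfb3 are lower on both scales, while at Fbp2, Phkg1 and Phka1 the libraries of the groups meet or come close per peak.

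Among lead peaks, the lowest ratios were those of Fbp2 (-0.76), Hk1 (-0.52), Pgm2 (-0.40), Gbe1 (-0.34) and Pfkfb3 (-0.30). Hk1, a hexokinase that traps glucose in the cell, had 47.0 and 43.5 in control and 31.5 and 31.5 in detrained libraries, over 3447 and 5653 bp, and its ratio per peak was 0.19. Pgm2, which links glycogen to glycolysis, had 76.0 and 91.8 against 62.0 and 65.0 over a domain of 17811 and 19954 bp, and was lower per peak as well (-0.23). The highest ratios were those of Pfkl, Ugp2, Gyg (0.24), Pfkm (0.20) and Pygm (0.16), and in the last 3 the libraries overlapped. Per peak the ratios of these 3 were below 0, at -0.32, -0.02 and -0.60. Of the 34 lead peaks, 11 were lower (32.4%, against 27.2% of all shared peaks and 30.3% of those over a start site, which 30 of the 34 cover) and 2 higher (5.88%, against 22.8%) in both detrained libraries, and 21 of the 34 ratios were below 0 (55.0% of all shared peaks over a start site were). The ratio changed sign per peak at 14 of the 34.

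**Figure D5:**
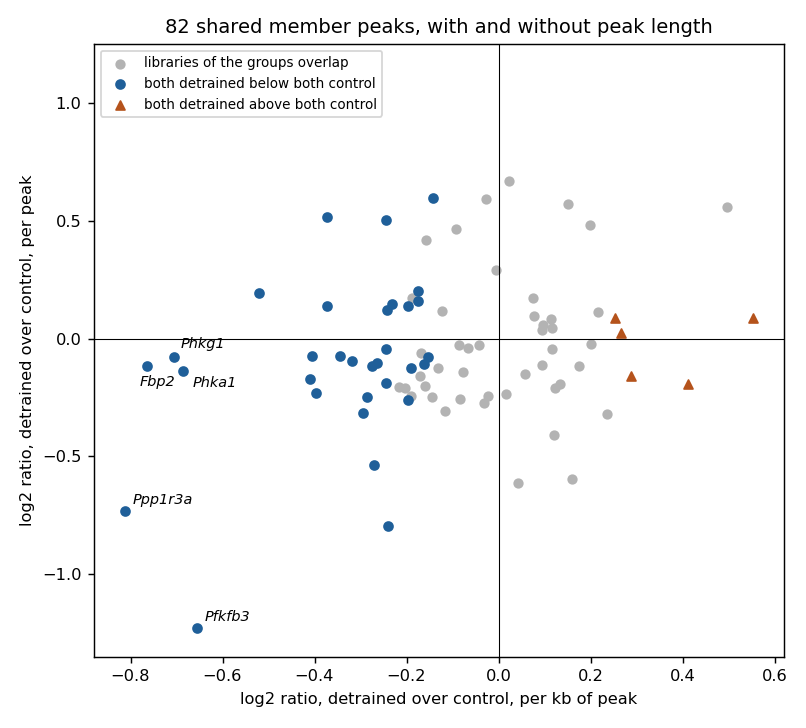
Log2 ratio of detrained over control mice at the 82 shared peaks, per kb of peak (x axis) against per peak (y axis), both without units; blue points have both detrained libraries below both control libraries, orange triangles above, grey points overlap per kb. Ppp1r3a and Pfkfb3 lie far below 0 on both axes, Fbp2, Phkg1 and Phka1 on the x axis alone.

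Several long domains were listed differently in the tables. The 20152-bp control domain at Eno3 (1755 pooled normalized tags) was covered to 67.7% by 2 detrained peaks with 1525 tags in all, one labelled Eno3 (9151 bp) and one labelled with the neighbour Spag7. The 14652-bp Gys1 domain (870 tags) met 2 detrained Gys1 peaks with 995 tags, and densities in the main peak were 54.0 and 65.0 against 82.8 and 78.1 over lengths of 14652 and 7222 bp. The Eno1 promoter domain of 10110 bp (784 tags) was covered to 67.5% by 2 Eno1 peaks with 557 tags. At Pygm the 14999-bp control domain (1202 tags) met 2 detrained peaks with 1059 tags, and at Pkm 14130 bp (1054 tags) met 2 with 967 tags. In the other direction, the 14672-bp detrained domain at Gpi1, the glucose phosphate isomerase (768 tags), met 2 control peaks with 843 tags. Of the 38 main control peaks, 29 overlapped a single detrained peak, 6 several and 3 none (Pfkp, Pfkfb2 and Ppp1r3d).

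The promoter of Pfkfb2, the heart form of the phosphofructokinase regulator, shows how a label can move. Its detrained promoter peak (3935 bp, densities of 106 in Ex1 and 93.1 in Ex2) overlapped a control peak labelled with the divergent neighbour Yod1 (3227 bp, 380 against 391 pooled tags), and the only control peak labelled Pfkfb2 was an intronic one of 894 bp. In each table, 10 of the 38 main peaks also covered the start site of another gene.

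Peaks in a single list were short and weak. Of the control peaks, 93 of 123 (75.6%) overlapped a detrained peak, against 72.1% of all control peaks, and 98 of 104 detrained peaks (94.2%) overlapped a control peak, against 82.0% of all. The 30 peaks found only in the control list belonged to 17 genes, with a median length of 912 bp and a median of 18.2 pooled normalized tags, and 2 of them covered a start site (Pfkp and Ppp1r3d). The 6 found only in the detrained list belonged to 5 genes, with a median of 20.6 tags, and the strongest (48.0 tags) lay upstream of Pygm. With fewer peaks called in detrained mice over all genes, 15 members had fewer peaks there, 6 more and 19 the same number. The same split was not counted over all genes, so it is not a result about the members.

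Some members were surrounded by clusters of distal peaks. Ppp1r3a had 11 control and 7 detrained peaks, reaching 225968 bp from its start site. The densest distal one, 170342 bp away, had densities of 82.7, 103, 97.0 and 85.5 in C2, C3, Ex1 and Ex2, close to the 72.6, 101, 77.9 and 72.3 at the start site itself. Pgm2 had 8 control peaks with a summed length of 52.9 kb, 3 of them 12008 to 17811 bp long. Its peak 25952 bp into the gene had 77.0, 104, 76.6 and 83.4. Phkb had 9 control peaks, with 68.0, 105, 82.2 and 83.1 at a peak of 8531 bp lying 20343 bp into the gene and 72.1, 90.1, 71.6 and 69.8 at one 194925 bp away. Pfkfb3 also had 9, and the 17562-bp intronic peak had 65.2, 79.1, 64.2 and 65.7. At the first of these Phkb peaks, the Pgm2 peak and the Pfkfb3 domain the groups overlapped. At Ugp2, with 7 control peaks, 3 of 4 shared peaks had ratios above 0 (0.17 to 0.27), though the libraries overlapped at all but the start site. Ratios above 0 were also found at 3 of 5 shared peaks of Ppp1r3c and at 3 of 5 of Gbe1. These clusters were chosen after their values were seen.

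The members not yet described kept to the same range. Upper glycolysis and its regulators included Gpi1 (mean density 52.9, log2 ratio -0.03), Pfkfb1 (53.3, 0.10) and Pfkfb4 (77.8, 0.06), with overlapping libraries at each lead peak. Among the enzymes of the lower steps, Pgk1, phosphoglycerate kinase (37.4, -0.24), was lower in both detrained libraries by a margin of 36.75 against 36.92, and its libraries overlapped per peak (209.9 and 255 against 209.6 and 239.8 tags). The libraries of Pkm (77.5, 0.12) overlapped. Of the glycogen genes, Ppp1r3c at its start site (68.3, -0.17) and the distal lead peak of Ppp1r3b (50.8, -0.27) were lower per kb in both detrained libraries, and Pgm1 (38.9, 0.09) overlapped. Per peak the Ppp1r3c start site went the other way (519 and 649 against 669 and 664 tags, log2 ratio 0.20), its detrained peak being longer.

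Further genes of the same pathways were examined for comparison. Of 24 such genes, 19 were listed in each table, and neither table listed Hk3, Gapdhs, Pgk2 or Pklr, which serve blood cells, testis or liver. Their 40 shared peaks at 18 genes had a median log2 ratio of -0.17, with 21 lower (52.5%, against 27.2% of all shared peaks) and 6 higher (15%, against 21.3%) in both detrained libraries. Hk2, the hexokinase of insulin-responsive tissue, carried a control peak of 28982 bp whose libraries overlapped between the groups (82.1, 109, 92.9 and 91.1). The glucose transporter Slc2a4 overlapped at its start site (81.0, 107, 85.5 and 83.9), as did Ldha, lactate dehydrogenase (133, 161, 155 and 133). Ldhb, the heart form, was higher in both detrained libraries at its start site (29.3 and 30.0 against 39.8 and 33.5), while 2 peaks were at least 1.5-fold lower (2.06% of all shared peaks were). These were a peak 38927 bp from the start of Bpgm (39.6 and 36.6 against 24.1 and 21.5) and the start site of Ppp1r3f (59.6 and 58.3 against 39.0 and 32.2). Per peak their log2 ratios were -0.20 and -0.33, so neither was 1.5-fold lower, both detrained peaks being longer.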

How the data were processed

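H3K27ac ChIP-seq libraries of quadriceps (2 control, 2 detrained) and 1 input per group were analysed from 2 peak tables, 1 per group. Reads were mapped by the authors with Bowtie (1.2 in the submitters' processing notes) against mm10. They kept uniquely aligned reads and at most 1 read per position with HOMER, called peaks on the pooled libraries, and kept those that passed the authors' replicate test of both libraries against the input of the group. The deposited signal per peak is the pooled tag number per 10000000 tags. For each library the authors deposited log2 values, regularized by DESeq2 as run by HOMER, inside each table. The authors' fold over input (a log2 ratio) and adjusted p-value of a peak were used only for a stricter filter. All columns used could be assigned to a group (0 could not).

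Pooled tags were shared between the 2 libraries of a group in proportion to library total and 2 to the power of the log2 value. Density was (tags + 0.5) per kb per 10000000 tags. Shared peaks covered at least 50% of each other, one-to-one, with the same gene in both tables. A peak was called lower when each detrained library was below each control library, and higher in the reverse case, and 1.5-fold was the size limit. Library totals of 20805019 to 22400894 tags and 2 libraries per group limit the precision, and no test was made. The code was tested on simulated data.

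Values per library are given for the lead peaks of the 10 densest genes, all isoform families, the 5 largest increases and decreases, and shared peaks at least 1.5-fold apart without overlap. Other genes and peaks named in the text were chosen after their values were seen. The 40 genes, the isoform families, the pathway list and the marker lists were chosen with earlier results of these data known. Promoter windows came from RefSeq (GRCm38.p6). Figures were drawn with matplotlib 3.10.9 and values computed in Python 3.11.15 with pandas 2.3.3, numpy 2.4.6 and scipy 1.17.1. Alternatives were tags per peak, another pseudocount, other scalings, other overlap limits, stricter peaks and leaving out each library.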

Additional observations from a re-analysis of the deposited data

How the results depend on the processing

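No paired analysis was possible because the groups hold different mice, and the columns C2 and C3 do not carry the numbers that the titles give the control mice. Leaving out each library in turn, the median log2 ratio (82 shared peaks) ranged from -0.218 to -0.004, the higher peaks from 8 to 31 (main 5), the lower peaks from 35 to 58 (main 32) and those at least 1.5-fold apart from 5 to 8 (main 5, all lower). Without C3 the latter were 3 lower and 2 higher. Leaving out a library loosens the rule, so the counts of higher and lower peaks can only stay or rise. The matching shares of all shared peaks are given with the results. The median stayed below 0 under the other settings. The higher peaks numbered 14 per peak instead of per kb (with 23 lower), 18 scaled to the tags in listed peaks, 10 with the median of all shared peaks set to 0, and 2 when 80% of each peak had to be covered. The 80% limit left 42 shared peaks, with 13 lower and 1 at least 1.5-fold apart (16.5% of all shared peaks were higher there, 23.7% lower and 0.645% at least 1.5-fold lower). The 1.5-fold count was 8 per peak (5 lower, against 5.08% of all shared peaks, and 3 higher, with 2 of the main 5 among them) and 3 with stricter peaks (at least 4-fold over input, adjusted p under 0.001; 1.75% of all were 1.5-fold lower), and a 2-fold limit left 0. With 50% of each peak covered, 66.7% of control and 80.8% of detrained peaks met the other list (56.3% and 64.9% of all peaks), and with stricter peaks 90.9% of control peaks did (88.7% of all). Of the 10 densest genes, 4 stayed among the first 10 by tags per peak and 5 by summed tags. Per peak, the log2 ratio changed sign at 14 of 34 lead peaks, as lengths differ between the tables. Of those whose libraries did not overlap per kb, these included Hk1 (0.19), Pfkl (-0.16), Pgam1 (0.12) and Phka2 (0.14), and Ppp1r3c (0.20). The values per library rest on shrunken log values, so the spread within a group may be understated, and regions under the calling threshold were not seen.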
